A study of Mus musculus with 8 samples.

Results

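The cytochrome P450 genes of families 1 to 4 were followed in brain, kidney and liver of male mice given lead acetate in drinking water. Members were all non-control probes whose gene name in the scanner files is Cyp, a family digit from 1 to 4, a subfamily letter and a number. The rule took 101 of 56605 probes, and these probes name 73 of 37074 gene names. It left out names that end in a further letter, such as Cyp4a12a and Cyp3a41a, names with 2 subfamily letters, and names marked as pseudogenes.

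The high dose was 1000 mg/L and the low dose 100 mg/L, both given for 3 weeks, and controls drank distilled water. Brain and kidney each had a high-dose, a low-dose and a control array, and liver had a high-dose and a control array; a low-dose liver was not analysed here. Each of the 8 groups is 1 Agilent one-colour expression array, so a difference between doses within a tissue has no replicate check and no p-value. The RNA came from pieces of tissue, and the strain, the age and whether the tissues of a dose came from the same animals are not given in the sources used here. In such bulk samples, fewer cells of a type and less RNA per cell cannot be told apart.

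The cytochrome P450s of families 1 to 4 are heme enzymes of the endoplasmic reticulum. They take electrons from P450 oxidoreductase (Por) and insert 1 oxygen atom into drugs, toxicants, steroids and fatty acids. Families 1 to 3 hold most drug- and toxicant-metabolising forms, and family 4 holds mainly fatty acid hydroxylases. In rodents their genes lie in clusters of close copies, many are expressed mostly in hepatocytes, and several differ between the sexes or respond to ligand-activated receptors such as the aryl hydrocarbon receptor (AhR), the constitutive androstane receptor (CAR), the pregnane X receptor (PXR) and PPAR alpha.

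All levels are log2 of the background-subtracted signal relative to the array's own 75th percentile, so 0 is the signal of a probe at that percentile and each step of 1 is a doubling. Levels are compared for 1 probe across arrays, not between probes. A gene counts as measured in a comparison where neither array had its probe saturated and both had it well above background. A measured gene was called higher or lower where the log2 difference was at least 1 in size and over 3 times the error that the scanner software gives for the 2 spots.

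The 2 members called higher in high-dose liver, Cyp2a4 and Cyp2a5, lie in 1 cluster on chromosome 7 with Cyp2b9 and Cyp2b13, which are described with them, and the start regions of these 4 genes show how alike each pair is. The RefSeq windows (GRCm38.p6, plus strand) hold the 250 bases before each gene's start and the first 50 after it, and 60 of the 73 members had one in the table used. They are chr7:26306942-26307241 for Cyp2a4, chr7:26835089-26835388 for Cyp2a5, chr7:26173159-26173458 for Cyp2b9 and chr7:26061245-26061544 for Cyp2b13. Capitals mark the bases at which the members of a pair differ. Cyp2a4 and Cyp2a5 differed at 5 of 299 aligned bases (98.3% identity), and Cyp2b9 and Cyp2b13 at 2 of 300 (99.3%).
Cyp2a4: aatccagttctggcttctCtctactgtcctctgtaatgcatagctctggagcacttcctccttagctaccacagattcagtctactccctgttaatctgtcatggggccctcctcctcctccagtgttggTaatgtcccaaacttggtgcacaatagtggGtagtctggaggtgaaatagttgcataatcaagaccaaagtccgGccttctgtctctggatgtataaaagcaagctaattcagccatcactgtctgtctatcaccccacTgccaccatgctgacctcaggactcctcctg
Cyp2a5: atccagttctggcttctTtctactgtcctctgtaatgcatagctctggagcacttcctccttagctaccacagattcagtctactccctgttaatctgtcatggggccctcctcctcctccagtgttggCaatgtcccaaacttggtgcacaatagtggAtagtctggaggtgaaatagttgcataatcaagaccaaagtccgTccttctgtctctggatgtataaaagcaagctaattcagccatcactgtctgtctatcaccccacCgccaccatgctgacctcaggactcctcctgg
Cyp2b9: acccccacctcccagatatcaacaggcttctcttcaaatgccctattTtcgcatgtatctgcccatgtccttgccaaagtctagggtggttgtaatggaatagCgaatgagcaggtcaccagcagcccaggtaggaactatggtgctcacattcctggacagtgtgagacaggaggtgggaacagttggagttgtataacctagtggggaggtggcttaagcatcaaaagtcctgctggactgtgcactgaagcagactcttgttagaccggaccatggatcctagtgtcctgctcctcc
Cyp2b13: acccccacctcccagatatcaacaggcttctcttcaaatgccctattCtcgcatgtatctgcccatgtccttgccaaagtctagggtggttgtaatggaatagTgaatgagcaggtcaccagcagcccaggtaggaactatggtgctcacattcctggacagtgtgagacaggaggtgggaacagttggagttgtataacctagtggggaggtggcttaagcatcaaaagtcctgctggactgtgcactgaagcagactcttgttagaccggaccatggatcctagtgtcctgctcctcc

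Short motifs were searched on both strands of the same windows, as letters only. CAAAGTCC, the letters of an HNF4 half-element (HNF4 alpha is a liver and kidney factor), was present in 12 of 60 member windows (20%), against 1.44% of all 27025 RefSeq windows. The 12 were Cyp2a4, Cyp2a5, Cyp2c40, Cyp2c65, Cyp2c66, Cyp2c67, Cyp2c68, Cyp2c69, Cyp2c70, Cyp3a11, Cyp3a16 and Cyp4f18, and close copies among them share sequence. TATAAA was present in 25 member windows (41.7%) and in 14.2% of all windows, and Cyp2a4, Cyp2a5, Cyp2a12 and Cyp2a22 were among the 25. GCGTG, the core of the xenobiotic response element bound by AhR, was present in 12 member windows (20%), Cyp1a1, Cyp1b1 and Cyp4v3 included, and in 32.5% of all. TGACNNNGC, the letters of the antioxidant response element, was in 5 member windows (8.33%) and in 12.5% of all. Of the 2 metal response element variants, TGCGCNC was in the window of Cyp2r1 alone (1.67% of members, 15.5% of all) and TGCACNC in 8 (13.3% of members, 12.4% of all).

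Several probes of the array read close copies, and 2 pairs and the Cyp2a22 probe, whose gene was called in kidney, are shown from the array design (mm9). The Cyp3a25 probe (chr5:146789175-146789234, minus strand) and the Cyp3a57 probe (chr5:146151322-146151381, plus strand) overlap by 52 bases with 3 mismatches, in capitals, so their signals may not be separate measurements. The Cyp2d34 probe (chr15:82447966-82448025, minus strand) and the Cyp2d9 probe (chr15:82285582-82285641, plus strand) share a run of 17 bases, in capitals. The Cyp2a22 probe lies at chr7:27722746-27722805 on the minus strand. The Cyp2c67 and Cyp2c68 probes, not printed, overlap by 59 bases with 4 mismatches. The probes of Cyp2a4 and Cyp2a5 shared no run of 15 bases or more, and neither did those of Cyp2b9 and Cyp2b13. Probes were compared only with each other. Whether a probe also reads the transcript of its gene's close copy was not tested, so the signals of these pairs may not be separate measurements.
Cyp3a25 probe: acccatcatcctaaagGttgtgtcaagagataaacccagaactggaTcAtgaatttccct
Cyp3a57 probe: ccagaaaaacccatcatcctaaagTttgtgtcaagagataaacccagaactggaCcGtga
Cyp2d34 probe: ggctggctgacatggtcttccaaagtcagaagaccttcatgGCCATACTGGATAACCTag
Cyp2d9 probe: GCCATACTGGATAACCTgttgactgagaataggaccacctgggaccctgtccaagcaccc
Cyp2a22 probe: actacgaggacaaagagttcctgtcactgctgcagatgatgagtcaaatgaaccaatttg

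Liver carried most of the set. On both liver arrays, 61 of 73 members were well above background (83.6%, against 51.4% of all gene names), on all kidney arrays 45 (61.6%, against 55.6%) and on all brain arrays 34 (46.6%, against 60.5%). A further count found 13 members (17.8%) well above background on both liver arrays and on no other, against 0.833% of all gene names. These 13 were Cyp2a12, Cyp2c37, Cyp2c39, Cyp2c40, Cyp2c50, Cyp2c54, Cyp2c66, Cyp2g1, Cyp3a16, Cyp3a25, Cyp3a44, Cyp3a57 and Cyp3a59. In all, 30 members (41.1%, against 46.8% of all gene names) were well above background on all 8 arrays. Another 6 (8.22%, against 26.3%) were so on none: Cyp2b19, Cyp2b23, Cyp2c65, Cyp4a14, Cyp4a29 and Cyp4f37.

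**Figure D1:**
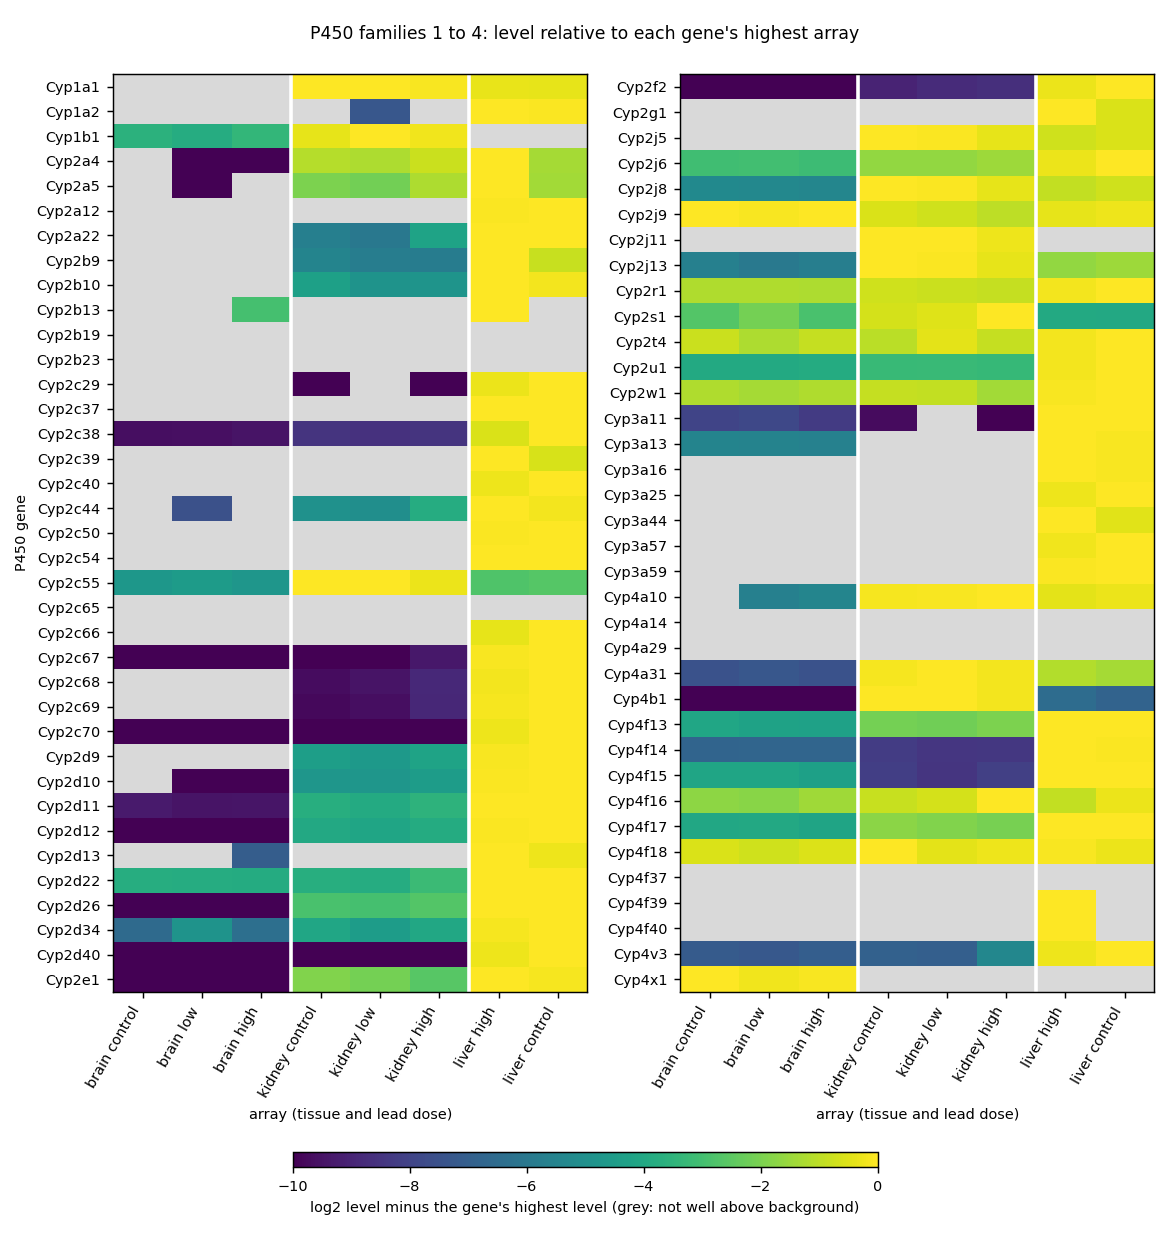
Level of each of the 73 P450 genes on each of the 8 arrays (x axis, tissue and lead dose), coloured by the log2 level minus the gene's highest level and grey where the probe was not well above background. Of the 73 genes, 61 are coloured on both liver arrays, 45 on every kidney array and 34 on every brain array.

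Tissues were compared with limma, with tissue and dose as factors over all 8 arrays (3 residual degrees of freedom) and adjustment over all gene names, at an adjusted p under 0.05 and a log2 difference of at least 1. Against kidney, 49 of 73 members were higher in liver and 7 lower, where 14.7% of all gene names were higher and 11.2% lower. Against brain, 62 were higher in liver and 3 (Cyp1b1, Cyp2s1 and Cyp4x1) lower, where 38% of all gene names were higher and 17.7% lower. Between kidney and brain, 34 were higher in kidney and 5 lower, where 18% were higher and 16.9% lower. The background depends on the scaling: after quantile normalization 22.4% of all gene names were higher in liver than in brain and 18.2% lower (14092 higher and 6566 lower in the main scaling, 8305 and 6732 in this one), with 60 members higher and 2 lower. Against kidney, 10.9% were higher in liver and 11.9% lower after quantile normalization (5468 and 4154 in the main scaling, 4024 and 4407 in this one), with 47 members higher and 9 lower. With the brighter tissue also required to be well above background on all its arrays, 45 members were higher in liver than kidney and 7 lower, where 9.79% and 10.2% of gene names were. Under this requirement 56 members were higher in liver than brain and 3 lower. The gene names then numbered 7249 higher and 6303 lower, against 14092 and 6566 without it, so the 38% also depends on dim probes.

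All 7 Cyp3a genes, whose human relatives metabolise a large share of drugs, were higher in liver than in kidney and than in brain. Cyp3a11 had levels of 5.91 and 5.94 in high-dose and control liver, while its kidney levels were -3.78 (control), -4.55 (low dose, not well above background) and -4.11 (high dose). Its liver minus kidney difference was 10.02 (95% interval 9.46 to 10.57, adjusted p = 5.36e-07, limma). Cyp3a25 was at least 2432-fold higher in liver than in kidney, where no array showed it well above background (adjusted p = 2.07e-07, limma). Such bounds set the liver mean against, per kidney array, the higher of the lowest signal well above background and the probe's own signal. They leave out the error that the scanner software gives for the spots. An adjusted p printed beside a bound, here and below, tests the fitted difference between tissues, dim readings included, and not the bound.

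The 9 Cyp2d genes, which oxidise many basic drugs, were also all higher in liver than in kidney and than in brain. Cyp2d11 had levels of 9.02 in high-dose liver and 9.02 in control liver, and of 5.28, 5.12 and 5.48 in control, low-dose and high-dose kidney. Its brain levels were -0.26, -0.44 and -0.40 in control, low-dose and high-dose samples, so the 3 tissues did not overlap. Cyp2d26 had levels of 8.89 and 8.91 in high-dose and control liver, and of 6.02, 5.97 and 6.23 in control, low-dose and high-dose kidney. Cyp2d10 had levels of 8.43 and 8.48 in high-dose and control liver, and of 3.73, 3.74 and 4.02 in control, low-dose and high-dose kidney. Of the 15 Cyp2c genes, which include fatty acid epoxygenases and drug hydroxylases, 13 were higher in liver than in kidney, with Cyp2c50 at least 2672-fold higher (adjusted p = 2.03e-07, limma). Cyp2a12, a steroid hydroxylase, was at least 2921-fold higher in liver than in kidney (adjusted p = 1.19e-06, limma).

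Cyp2a22 was also higher in liver than in kidney, by 5.08 (95% interval 4.08 to 6.09, adjusted p = 1.19e-04, limma). Cyp2a4 and Cyp2a5 were well above background on every array of both organs, and their liver minus kidney differences of 0.51 (95% interval -0.47 to 1.49, adjusted p = 0.308) and 1.29 (-0.56 to 3.15, adjusted p = 0.184) did not pass the limma test. Cyp2e1, which oxidises ethanol and small solvents, had levels of 9.68 in high-dose liver and 9.53 in control liver, and of 7.77, 7.59 and 7.07 in control, low-dose and high-dose kidney. The brain levels of Cyp2e1 lay between -4.50 and -4.23, and it was 2.17 higher in liver than in kidney (95% interval 1.66 to 2.69, adjusted p = 2.71e-04, limma). Cyp2f2, known for naphthalene activation in mouse airway cells, was 8.51 higher in liver than in kidney (95% interval 7.81 to 9.22, adjusted p = 2.70e-06, limma).

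In all, 7 members were lower in liver than in kidney. Cyp4b1, an oxidase of fatty acids and some protoxins, had levels of 7.24 in control, 7.21 in low-dose and 7.05 in high-dose kidney, and of 0.77 and 0.41 in high-dose and control liver (liver minus kidney -6.57, 95% interval -7.10 to -6.04, adjusted p = 2.39e-06, limma). Cyp2j11, of the Cyp2j arachidonic acid epoxygenases, was the member above background on every kidney array and on no other array (1.37% of members, against 1.29% of all gene names). It was at least 70.7-fold lower in liver (adjusted p = 1.90e-05, limma). The others were Cyp1b1 (steroid and polycyclic hydrocarbon oxidase), Cyp2c55, Cyp2s1, Cyp4a31 and Cyp2j13. For Cyp2j13 the 3 other probes were not above background in liver. The second probe of Cyp2c55 went the other way. It read -2.40 and -2.16 in high-dose and control liver, and -5.70, -5.13 and -6.86 in control, low-dose and high-dose kidney. The direction for Cyp2c55 thus depends on the probe. Cyp2j5, Cyp2j8 and Cyp2j9 did not pass both thresholds between the organs, and Cyp2j5 was at 5.04 and 5.18 in high-dose and control liver against 5.75, 5.69 and 5.38 in control, low-dose and high-dose kidney.

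In brain, Cyp4x1, known mainly from brain, was the member well above background on all 3 brain arrays and on none of kidney or liver (1.37% of members, against 5.01% of all gene names). Its levels were 0.14, -0.07 and 0.04 in control, low-dose and high-dose samples, and it was at least 27.2-fold lower in kidney than in brain (adjusted p = 1.85e-06, limma) and at least 16.3-fold lower in liver (adjusted p = 1.40e-05, limma). The leukotriene and fatty acid hydroxylases Cyp4f14 and Cyp4f15, together with Cyp3a11 and Cyp3a13, were also lower in kidney than in brain. For Cyp3a13, not well above background on any kidney array, the bound was only 1.16-fold. Cyp1b1, lower in liver than in brain, likewise had a bound of only 1.49-fold. Cyp4f15 differed by -4.04 (95% interval -4.31 to -3.76, adjusted p = 4.45e-07, limma). Cyp2r1, a vitamin D hydroxylase, was well above background on every array: 1.47, 1.45 and 1.42 in control, low-dose and high-dose brain, 1.93, 1.86 and 1.76 in the same order in kidney, and 2.48 and 2.64 in high-dose and control liver. It was 1.12 higher in liver than in brain (95% interval 0.99 to 1.25, adjusted p = 4.20e-06, limma). For Cyp2u1, the reported probe holds a 32-base run of TG repeats and read 4.32 to 8.26 on all 8 arrays, while its other 2 probes gave brain levels of -3.24 to -2.01, so its level is uncertain.

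High-dose liver differed from control liver in a few P450s of the chromosome 7 cluster. Cyp2a4, a testosterone hydroxylase, had a level of 6.84 in high-dose liver and 5.48 in control liver, and Cyp2a5, the coumarin and nicotine hydroxylase, one of 7.47 and 6.07. The differences were 1.37 (array error 0.204) and 1.40 (array error 0.204). They were the 2 members called higher of 61 measured and none was called lower, where 0.336% of all measured genes were called higher and 0.456% lower. As a description, 0.110% of the 19062 measured genes lay as far above the control as Cyp2a4 and 0.0892% as far as Cyp2a5.

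Other genes of the cluster differed among themselves. Cyp2b13, a female-predominant form in mouse liver, was well above background in high-dose liver (level -1.14) and not in control liver (level -3.95). Its difference of 2.81 (array error 0.415) thus rests on a control signal near the detection limit and was not called. Cyp2b9, also female-predominant, had a level of 2.77 in high-dose liver and 1.94 in control liver, a difference of 0.84 that stayed under the size rule. Cyp2b10, the usual read-out of CAR, differed by 0.16 on its reported probe and by -0.39 on its second. Cyp2a12 and Cyp2a22 lay at -0.06 and 0.03. Among other members with alike start regions, Cyp2c40 and Cyp2c69, at 98.9% identity, lay at -0.26 and -0.13, Cyp3a25 and Cyp3a59, at 96.3%, at -0.24 and -0.05, and Cyp2c38 and Cyp2c39, at 82.0%, at -0.57 and 0.59.

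**Figure D2:**
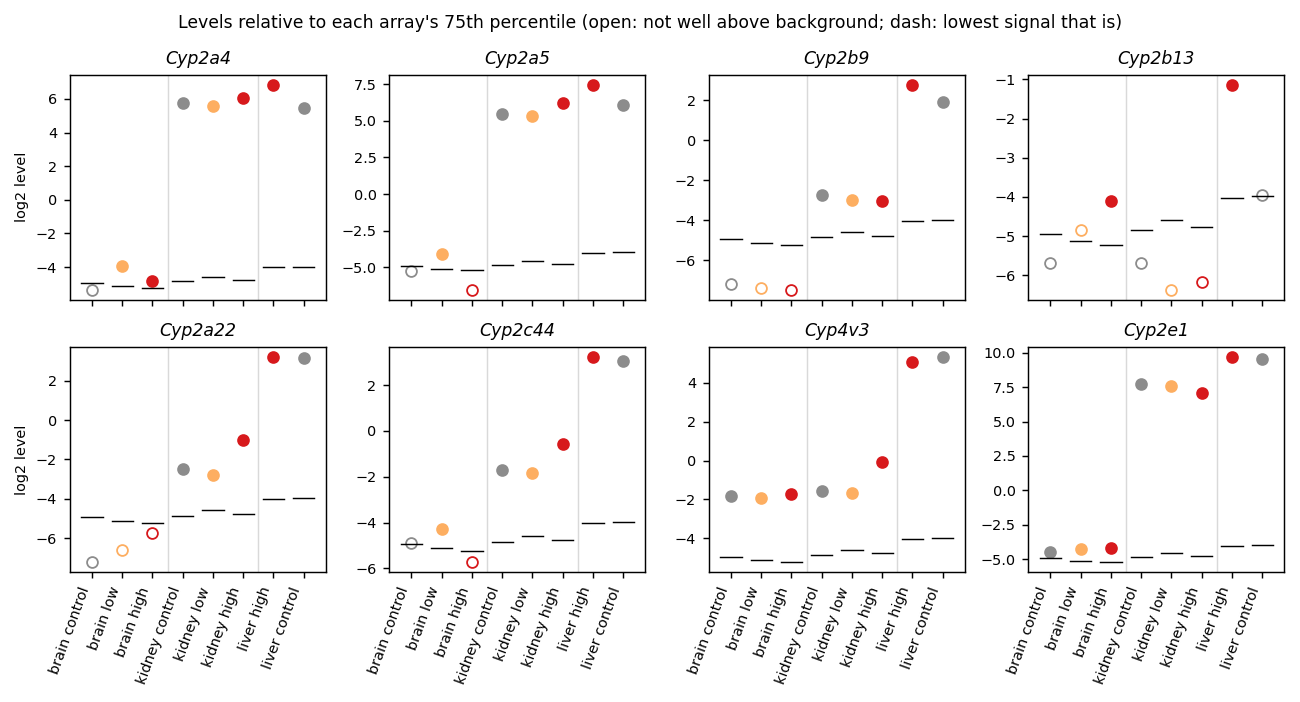
Log2 level of 8 P450 genes on each array (grey control, orange low dose, red high dose; open circles not well above background; dashes, the lowest signal well above background on that array). Cyp2a4 is at 6.84 in high-dose and 5.48 in control liver, and Cyp4v3 is at -0.07 in high-dose and -1.57 in control kidney.

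Over all 61 measured liver members, Cyp2a4 and Cyp2a5 included, 23 lay above the control and 38 below, with a median difference of -0.05 against -0.02 over all measured genes. This balance depends on the scaling. After quantile normalization 32 lay above and 29 below (median 0.005), and under normexp with quantile normalization 29 lay above and 32 below. The counts by subfamily that follow are from the main scaling only. Of 14 Cyp2c genes measured, 12 lay below (median -0.12), and of 9 Cyp2d genes 7 lay below, but none reached the size rule. All 5 measured Cyp2j genes lay between -0.28 and -0.14. The lowest values were -0.64 for Cyp4f16, whose second probe was not above background, -0.57 for Cyp2c38 and -0.39 for Cyp2c66. Cyp2e1 differed by 0.16.

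**Figure D3:**
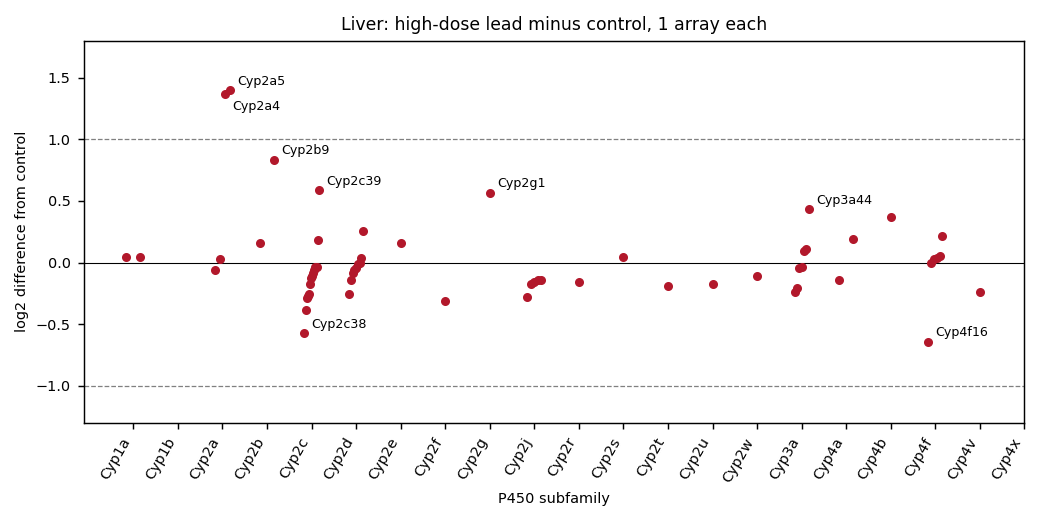
Log2 difference, high-dose minus control liver, of the 61 measured P450 genes by subfamily (1 array each; dashed lines at 1 and -1). Cyp2a4 and Cyp2a5, at 1.37 and 1.40, are the 2 points beyond a dashed line.

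P450 genes are often read as reporters of receptors. Of the AhR targets, Cyp1a1 and Cyp1a2 differed by 0.04 and 0.05 in high-dose liver, while Nqo1, a quinone reductase that NRF2 also controls, had a level of -2.21 in high-dose liver and -3.60 in control liver (difference 1.39, called). The lowest level well above background in control liver was -3.97, so Nqo1 there, and Cyp1a1 at -3.82, were near the detection limit. Of 22 CAR or PXR targets on the array, 19 were measured in liver, with differences from -0.29 to 1.40 and a median of -0.03, and Cyp2a4 and Cyp2a5 were the 2 called. Of 18 PPAR alpha targets on the array, 17 were measured; the fatty acid hydroxylases Cyp4a10 and Cyp4a31 differed by -0.14 and 0.19, and Pdk4, a brake on glucose oxidation, was the 1 called, lower at -1.26. None of 13 receptor genes was called: Nr1i3 (CAR) differed by 0.21, Nr1i2 (PXR) by 0.16 and Ahr by 0.03. Por, the electron donor, had a level of 4.79 in high-dose liver and 3.99 in control liver, a difference of 0.80 below the size rule. Alas1, the first enzyme of heme synthesis, differed by 0.50, and Alad, a heme synthesis enzyme that lead inhibits, by 0.03.

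The sex-typed liver genes, from lists drawn up from general knowledge but with earlier results of these data known, were also examined. Of 8 female-predominant P450s, 7 were measured, 5 lay above the control and 1, Cyp2a4, was called (median 0.09). Cyp2a4 is itself on this list and among the 5, so the list is no separate evidence about it. Of 8 male-predominant genes all were measured and all 8 lay below the control (median -0.23), and Elovl3, a fatty acid elongase, was the 1 called lower, at 4.85 in high-dose liver and 6.35 in control liver (difference -1.50). Over all measured genes 46.1% lay above the control. Hepatocyte markers in liver had a summed linear level of 8012 at the high dose and 8378 in control, with 0 of 12 called. Of 11 measured inflammation genes 10 lay below the control, with Il1b called lower at -1.27. Whether these values have a part in the Cyp2a4 and Cyp2a5 differences was not tested.

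In kidney, 3 members were called higher at the high dose and none at the low dose. Cyp2a22 had levels of -2.50, -2.79 and -1.02 in control, low-dose and high-dose kidney, and its high-dose difference was 1.48 (array error 0.213). Cyp2c44 (Cyp2c23 in RefSeq), an arachidonic acid epoxygenase, had levels of -1.71, -1.84 and -0.57 in the same order, with a high-dose difference of 1.14 (array error 0.208). Cyp4v3, a fatty acid hydroxylase whose human counterpart is mutated in a retinal dystrophy, had levels of -1.57, -1.65 and -0.07, with a high-dose difference of 1.50 (array error 0.207). For all 3 the low-dose and control arrays lay close together and the high-dose array above both. The 3 were of 47 members measured at the high dose, where 1.12% of all measured genes were called higher and 0.542% lower. At the low dose 0 of 45 measured members were called, where 0.216% of genes were called higher and 0.274% lower.

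These calls do not all stand on equal ground. The second Cyp2c44 probe gave a difference of 1.47 but was not well above background in kidney, and Cyp2a22 and Cyp4v3 have 1 probe each. Cyp2c44 was no longer called under normexp background correction with quantile normalization (0.88), nor with the mean of probes (1.30, its second probe being dim). In liver the 3 genes differed by 0.03 (Cyp2a22), 0.18 (Cyp2c44) and -0.24 (Cyp4v3), and Cyp4v3 differed by 0.13 in high-dose brain.

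Below the size rule, the high-dose kidney differences split by subfamily. Beside the called Cyp2c44, 5 of 7 measured Cyp2c genes lay above the control, among them Cyp2c67, Cyp2c68 and Cyp2c69 at 0.89, 0.81 and 0.90, of which the first 2 share most of their probe sequence. Of 8 Cyp2d genes 7 lay above, and Cyp2a5 and Cyp2a4 were at 0.72 and 0.32. Of 6 Cyp2j genes 5 lay below (median -0.37). Cyp2e1 differed by -0.69 on the reported probe and by -0.82 on its other one. Cyp2w1 and Cyp2b10 differed by -0.54 and -0.51, but Cyp2b10 turned to 0.19 with the mean of its probes, the second of which was not above background in kidney. Cyp4f16 and Cyp2s1, at 0.85 and 0.64, were the highest outside Cyp2a, Cyp2c and Cyp4v. Over all 47 measured members, the 3 called ones included, 26 lay above and 21 below, with a median of 0.07 against -0.03 over all measured genes. At the low dose the largest differences were 0.61 for Cyp2t4, 0.36 for Cyp1b1 and 0.24 for Cyp2f2 above the control, and -0.52 for Cyp2b10, -0.42 for Cyp2d34 and -0.41 for Cyp4f18 below it. Cyp1a2, the arylamine-oxidising AhR target, was well above background in kidney on the low-dose array alone, with levels of -6.72, -3.79 and -6.69 in control, low-dose and high-dose kidney, and was at least 2.08-fold higher at the low dose. Cyp3a11 differed by -0.77 at that dose (array error 0.426), where its low-dose signal was not well above background.

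**Figure D4:**
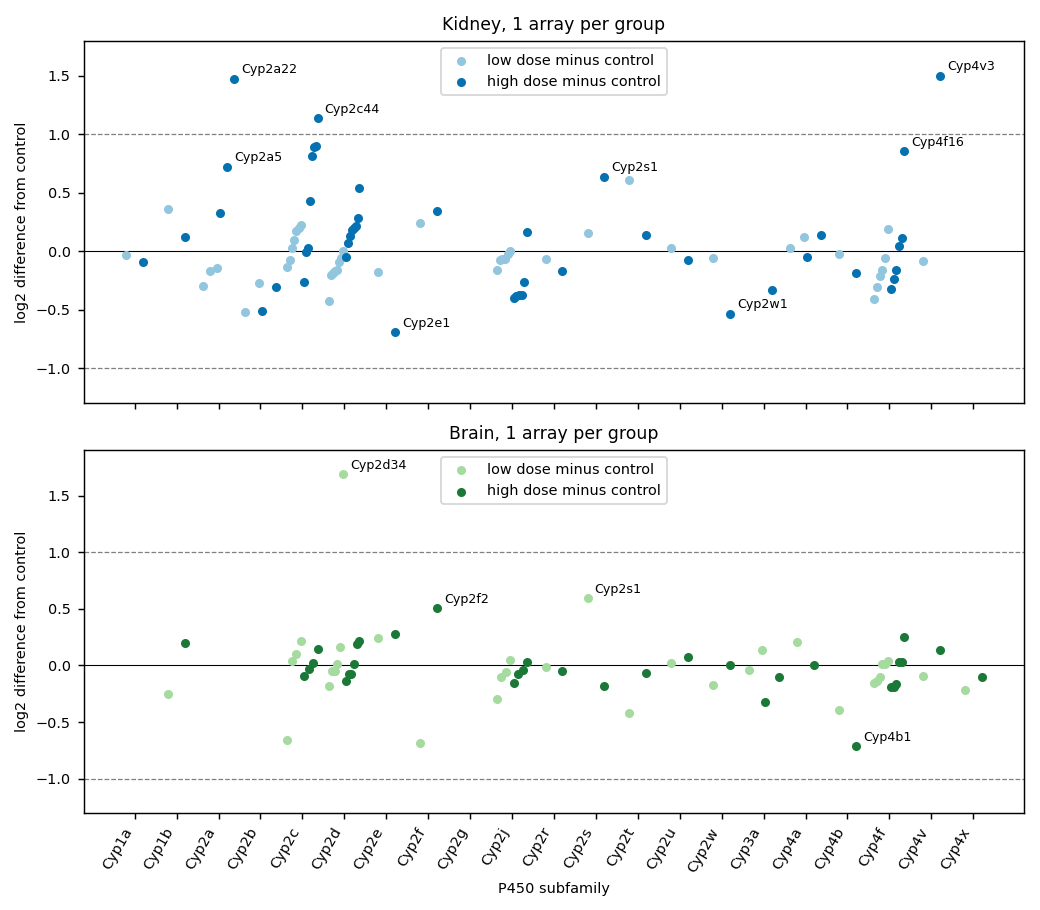
Log2 differences from control of the measured P450 genes by subfamily in kidney (upper panel) and brain (lower panel), low dose in pale and high dose in dark points (1 array each; dashed lines at 1 and -1). Cyp2a22, Cyp2c44 and Cyp4v3 lie above 1 in high-dose kidney and Cyp2d34 in low-dose brain.

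Markers of other tissues moved on the high-dose kidney array. Hepatocyte markers had a summed linear level of 20.9, 20.6 and 49.9 in control, low-dose and high-dose kidney, and 4 of 9 measured were called higher (Alb 1.22, Ahsg 1.38, Serpina1a 3.28, Hpx 1.67), while Apoh differed by 0.00. Testis markers summed to 2.36, 1.02 and 19.0, with all 5 called higher; urothelial markers summed to 0.601, 1.72 and 1.53 and adrenal markers to 4.23, 0.653 and 0.604 in that order of doses. Proximal tubule markers summed to 1786, 1740 and 1599, with 0 of 8 called. The part of other tissue in the P450 differences was not tested. Of 33 members at least 4 log2 units higher in control liver than in control kidney, 14 were not above background on either of the 2 kidney arrays compared. The 19 that were had differences from -0.51 to 1.50 (median 0.18), and 13 of them lay above the control, where 44.0% of all measured genes did. The control kidney array entered both the choice of these members and their differences. A low reading on it favours both, so these shares cannot be compared on equal terms. Of the hepatocyte markers, 8 of 9 measured lay above (median 0.74). Cyp2c70, 10.58 higher in liver than in kidney by the limma fit, differed by 0.03. The high-dose increment in kidney equalled 4.48% of the control liver signal for Cyp2c44, 3.53% for Cyp2a22 and 1.56% for Cyp4v3. It was 0.0984% for Cyp2c69, 0.0330% for Alb and 1.70% for Serpina1a.

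**Figure D5:**
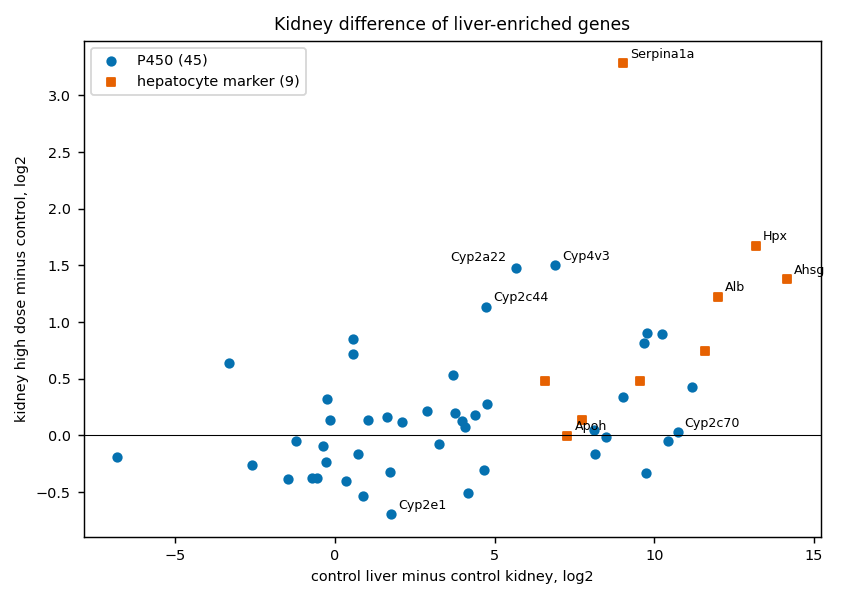
Log2 difference between high-dose and control kidney (y axis) against log2 control liver minus control kidney (x axis) for 45 P450 genes and 9 hepatocyte marker genes well above background on all 4 arrays. Cyp2a22, Cyp2c44 and Cyp4v3 stand at 1.48, 1.14 and 1.50 while Cyp2c70, with a larger liver excess, stands at 0.03. The control kidney array enters both axes.

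Other genes of the pathway were called in high-dose kidney. Among CAR or PXR targets 11 of 22 were measured (median 0.43), and the glutathione transferase Gstm3 (1.72) and the bile salt and conjugate exporter Abcc3 (1.53) were called higher. Ephx1, the epoxide hydrolase that acts on P450 products, had levels of 2.66, 2.94 and 4.19 in control, low-dose and high-dose kidney (high-dose difference 1.53, called), while Por differed by 0.03. Nqo1 was called higher at 1.02, and Hmox1, the heme-degrading enzyme, at 1.18; Cyp1a1 and Cyp1b1 differed by -0.09 and 0.12. Of 13 measured P450s of other families, the retinoic acid hydroxylase Cyp26b1 (1.38) and the vitamin D activating Cyp27b1 (1.14) were called higher, and the sterol demethylase Cyp51 (-1.28) and the adrenal Cyp21a1 (-3.41) lower. Cyp26b1 was also called in liver, at 1.03. None of the 12 receptor genes measured was called.

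In brain, Cyp2d34 was the 1 member of 34 measured that was called, higher at the low dose, where 0.444% of all measured genes were called higher and 0.306% lower. Its levels were -4.75, -3.06 and -4.56 in control, low-dose and high-dose brain, a low-dose difference of 1.69 (array error 0.353) at a signal near the detection limit. It was no longer called under normexp background correction with quantile normalization (0.65) or under the stricter filter on dim probes. At the high dose 0 of 34 were called, where 0.199% of genes were called higher and 0.252% lower. Other low-dose values were 0.59 for Cyp2s1 and 0.25 for Cyp2e1 above the control, and -0.69 for Cyp2f2, -0.65 for Cyp2c67 and -0.42 for Cyp2t4 below it. At the high dose Cyp2f2 lay at 0.51, Cyp2e1 at 0.28 and Cyp4f16 at 0.25, and Cyp4b1 at -0.71, Cyp3a11 at -0.32 and Cyp4f15 at -0.19. Cyp2a4 and Cyp2a5 were not well above background in control brain and were at least 2.03-fold and 1.81-fold higher in low-dose brain, with levels of -3.91 and -4.08 there, against -5.34 and -5.23 in control. Choroid plexus markers summed to 6.02 on the control, 5.03 on the low-dose and 2.002 on the high-dose brain array, and testis markers to 0.466, 0.447 and 10.04; their part in these values was not tested.

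An effect of dose common to the tissues was tested with the same limma model over 17352 genes well above background on all 8 arrays, 30 of them members. At the high dose 0 members and 0% of genes passed after adjustment, and 1172 genes had an unadjusted p under 0.05, Cyp2j8 and Cyp2r1 among them (adjusted p = 0.691 for each). Cyp2j8 differed by -0.23 (95% interval -0.38 to -0.08) and Cyp2r1 by -0.13 (-0.25 to -0.0035). At the low dose 0 members and 0% of genes passed, and 420 genes had an unadjusted p under 0.05, with Cyp4a31 the 1 member (difference 0.20, 95% interval 0.01 to 0.39, adjusted p = 0.9999).

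The arrays had 53.4% to 67.1% of spots well above background, and the signal at the 75th percentile was 919 to 954 units in brain, 729 to 782 in kidney and 427 to 435 in liver, so low levels are less well measured in liver. All 8 arrays lie on 1 slide.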

How the data were processed

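RNA of 8 tissue samples was hybridised to 1-colour Agilent arrays. The deposited scanner files hold spot intensity, background-subtracted by Feature Extraction 12.0.3.1, per the file headers; probe positions there are in mm9. The deposited value table holds the same signal, as a ratio to each array's 75th percentile over all spots, as setting it against the scanner values showed; it served as an alternative. From the scanner files, log2 of the processed signal minus each array's 75th percentile over non-control spots was computed, with outlier spots left out and spots of a probe averaged. Each gene was represented by whichever of its probes was brightest on average across the 8 arrays, under the file's gene name.

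Groups follow the samples' labels. Tissues and common dose effects were tested with limma 3.58.1 (R 4.3.3; lmFit, eBayes with an intensity trend, Benjamini-Hochberg); single-tissue dose differences had no test. The scripts ran in Python 3.11.15 and were tested on simulated data.

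The members, gene lists, marker lists and rules were chosen with earlier results of these data known. Members named are those past the size rule, the 6 with the highest level per tissue (a choice of members, not a comparison between probes), the 3 largest differences each way per comparison, and receptor-target and example members, given in part as ranges; motifs, promoter pairs and neighbours in the chromosome 7 cluster were singled out after their values were seen. Alternatives were other scalings, normexp (offset 50) with quantile normalization, the mean of probes, other filters on dim probes, no intensity trend, and each array left out in turn.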

Additional observations from a re-analysis of the deposited data

How the results depend on the processing

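No paired analysis was possible because each group has 1 array; the limma fit already compares tissues within doses and doses within tissues. In low-dose brain the count of 1 called member became 0 under normexp background correction with quantile normalization (Cyp2d34 then differed by 0.65) and 0 under the stricter filter on dim probes. In high-dose kidney the 3 called members became 2 under normexp (Cyp2c44 0.88) and 2 with the mean of probes, where Cyp2c44 differed by 1.30 but did not meet the rule. In high-dose liver 2 became 3 with no filter on dim probes, which adds Cyp2b13. Over all genes, normexp gave 20 higher and 23 lower calls in liver against 64 and 87, 119 and 21 in high-dose kidney against 237 and 115, 9 and 9 in low-dose kidney against 45 and 57, 42 and 19 in low-dose brain against 100 and 69, and 10 and 20 in high-dose brain against 45 and 57. The stricter filter gave 24 and 35 in liver and 115 and 32 in high-dose kidney. With no filter on dim probes the counts were 109 and 129 in liver and 374 and 166 in high-dose kidney. For gene names higher in liver than in brain, normexp gave 4835 against 14092; the median difference over all genes was 0.71, and 0.16 after quantile normalization. Of 150 values of named members under alternatives, 149 kept their direction, and Cyp2b10 in high-dose kidney was 0.19 with the mean of probes. These members were picked as called or as the 3 largest differences each way. Median scaling and the deposited values shift each array by a constant, and the mean of probes changes nothing for a gene with 1 probe. A kept direction was therefore likely beforehand, and this count is no check of the differences. Without 1 array each in turn, the members called numbered 35 to 40 for kidney minus brain (39 with all arrays), 63 to 67 for liver minus brain (65), 54 to 57 for liver minus kidney (56) and 0 to 0 for each dose effect. The cause of these changes was not tested. With 1 array per group, the spread between animals is unknown.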
